A study of Mus musculus with 16 samples.

Results

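Genes of brain blood vessels and of the blood-brain barrier were examined in the mouse dorsal raphe nucleus (DRN), a main source of the serotonin that reaches the forebrain. The genes were chosen by name, from a list of 37, with earlier results of these data known. Of these, 35 were among the 14504 genes measured. Emcn and Anpep were not in the table analyzed. The 35 genes were divided by role into 6 genes of cell junctions, 8 transporters and their partners, 15 other endothelial genes and 6 genes of mural cells, the pericytes and smooth muscle cells that wrap the vessel wall.

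PolyA RNA was sequenced from DRN punches of male C57BL/6 mice of 10 to 12 weeks of age, in 16 libraries of 6 groups. Control mice, which had not been defeated and were housed singly before the experiment, gave 3 saline libraries (con_sal_102, con_sal_104 and con_sal_114) and 3 dexamethasone (DEX) libraries (con_dex_101, con_dex_116 and con_dex_122). Mice stressed by 30 days of chronic social defeat were classed by behavior as passive (PS) or active (AS) in coping. PS mice gave 2 saline libraries (PS_sal_62 and PS_sal_68) and 3 DEX libraries (PS_dex_6, PS_dex_34 and PS_dex_64), and AS mice gave 3 saline libraries (AS_sal_8, AS_sal_14 and AS_sal_40) and 2 DEX libraries (AS_dex_38 and AS_dex_42). DEX, a synthetic glucocorticoid, was given at 2 mg/kg, and tissue was taken 6 h after DEX or saline. The study excluded PS and AS samples after DEX whose Tph2, a gene of serotonin synthesis, was low, so these groups were selected on tissue content. The control groups and the PS and AS saline groups also hold fewer libraries than the study's stated replicates per group. Its methods give no reason for this. A punch holds all cell types of the nucleus, so fewer vessel cells and less RNA per vessel cell cannot be told apart in any value given here.

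Endothelial cells of the brain are sealed to each other by tight junctions, so most solutes enter only through transporters in the cell membrane or are pumped back into the blood. Pericytes and smooth muscle share the vessel wall with them, and astrocyte end-feet and Wnt signals from neural cells help to maintain the barrier. Glucocorticoids are known to act on brain endothelial cells, which carry the glucocorticoid receptor.

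The sequences just before the starts of the genes that rose together after DEX are shown to let their composition be compared. RefSeq promoters (GRCm38.p6) covering 250 bases before the gene start were matched by symbol for 22 of the 35 genes, in 28 windows. Of the 4 genes that rose, Slc7a5 had no entry. Bases inside an exon of the gene's GENCODE vM21 annotation were left out. Each sequence is written 5′ to 3′ on the strand of its gene, and capitals mark GGGCGG (a GC box) and ACGTG (the core of a hypoxia response element) on either strand, which do not overlap in these sequences.
Mfsd2a promoter, chr4:122961189-122961438, minus strand: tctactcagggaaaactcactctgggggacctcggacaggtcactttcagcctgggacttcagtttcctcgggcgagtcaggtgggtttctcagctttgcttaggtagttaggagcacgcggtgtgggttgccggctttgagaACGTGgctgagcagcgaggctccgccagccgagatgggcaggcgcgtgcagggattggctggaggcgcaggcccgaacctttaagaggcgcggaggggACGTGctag
Slc2a1 promoter, chr4:119108495-119108710, plus strand: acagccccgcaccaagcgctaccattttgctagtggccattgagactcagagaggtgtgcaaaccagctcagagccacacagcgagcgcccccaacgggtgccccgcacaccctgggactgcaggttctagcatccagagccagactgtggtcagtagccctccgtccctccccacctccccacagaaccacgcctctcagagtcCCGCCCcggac
Pglyrp1 promoter, chr7:18884440-18884679, plus strand: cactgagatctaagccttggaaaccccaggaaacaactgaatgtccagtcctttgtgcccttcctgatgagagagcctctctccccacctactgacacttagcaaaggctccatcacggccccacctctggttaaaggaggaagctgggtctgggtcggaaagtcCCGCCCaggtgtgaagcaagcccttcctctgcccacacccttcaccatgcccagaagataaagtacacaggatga
The printed sequence of Mfsd2a held ACGTG at 2 places, and those of Slc2a1 and Pglyrp1 each held 1 GC box. Over the full 250 bases, Slc2a1 held ACGTG at 1 and GGGCGG at 2 places. ACGTG was in 3 and GGGCGG in 14 of the 28 windows of the vessel genes. ACGTG was present in 16.6% and GGGCGG in 32.7% of the 32851 promoters of the table, searched on both strands over 250 bases. The full glucocorticoid response element, searched by its inverted-repeat consensus, was in 0.387% of all promoters and in 0 of the 28 windows of the vessel genes. The letters AGAACA, an arm of that repeat, were in 16.1% of all promoters and in 4 of the 28, those of Tek, Vtn, Acta2 and 1 of the 3 windows of Egfl7. These matches describe the windows and were not tested against expression.

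Values are normalized counts, gene read counts divided by 1 size factor per library, and differences are log2 fold changes of the normalized count + 1, which understate the change of low genes. Each difference was tested with limma over all 14504 genes, and a gene was called at a Benjamini-Hochberg adjusted p under 0.1. Libraries held 38207157 to 62447298 reads in the listed genes. Gene positions are those of GENCODE vM21 on GRCm38. The DEX labels were checked with Fkbp5 and Tsc22d3, both glucocorticoid target genes, which were higher after DEX by 2.15 and 0.79 on the log2 scale in the average over phenotypes (adjusted p = 7.7e-11 and 0.000194).

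All 35 genes were measured well above zero, with at least 52 reads in the lowest library (Tagln). Per kb of exon, Bsg was highest at 11004 normalized counts per kb over all 16 libraries, followed by Slc2a1 at 1695 and Slc7a5 at 1342, 3 genes that cells other than endothelium also express. The endothelial junction gene Cldn5 was at 638, the pericyte genes Rgs5 and Vtn at 762 and 761, and Mfsd2a at 730.1 normalized counts per kb. Kdr and Vwf were the lowest, at 47.6 and 36.9 per kb. The spread between libraries of a group differed among the genes. The mean within-group coefficient of variation ran from 5.63% for Slc2a1 to 31.7% for Tagln, with Abcc9, Vwf and Acta2 next to it at 28.2%, 29.3% and 30.7%.

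Some libraries stood apart across the vessel genes. con_sal_102 was the highest of its 3 libraries in 29 of 35 genes, and PS_sal_68 was above PS_sal_62 in 31 of 35. Averaged over the 15 endothelial genes as log2 deviation from each gene's mean, con_sal_102 was at 0.28, con_sal_104 at -0.37 and con_sal_114 at -0.21, a wider range than that of the 8 DEX libraries (-0.22 to 0.13). AS_sal_40 had the highest mean mural level (0.48), as well as the highest mean deviation of 4 blood markers (1.32) and of 8 microglia markers (0.55). Among the mural genes it was the highest library for Rgs5, Vtn, Acta2 and Tagln, but the lowest for Pdgfrb (591 normalized counts). Its Abcc9 (339) lay within the range of the others. Markers of choroid plexus ranged from -1.88 to 1.20 and those of ependyma from -2.86 to 1.84 over the 16 libraries, with saline and DEX libraries overlapping in both. The 8 microglia markers ran from -0.012 to 0.55 in saline and from -0.26 to -0.0001 in DEX libraries, and their part in the results was not tested. Of the markers of vessel and meningeal fibroblasts 1 of 6 was listed (Dcn), and of those of perivascular macrophages 0 of 4.

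**Figure D1:**
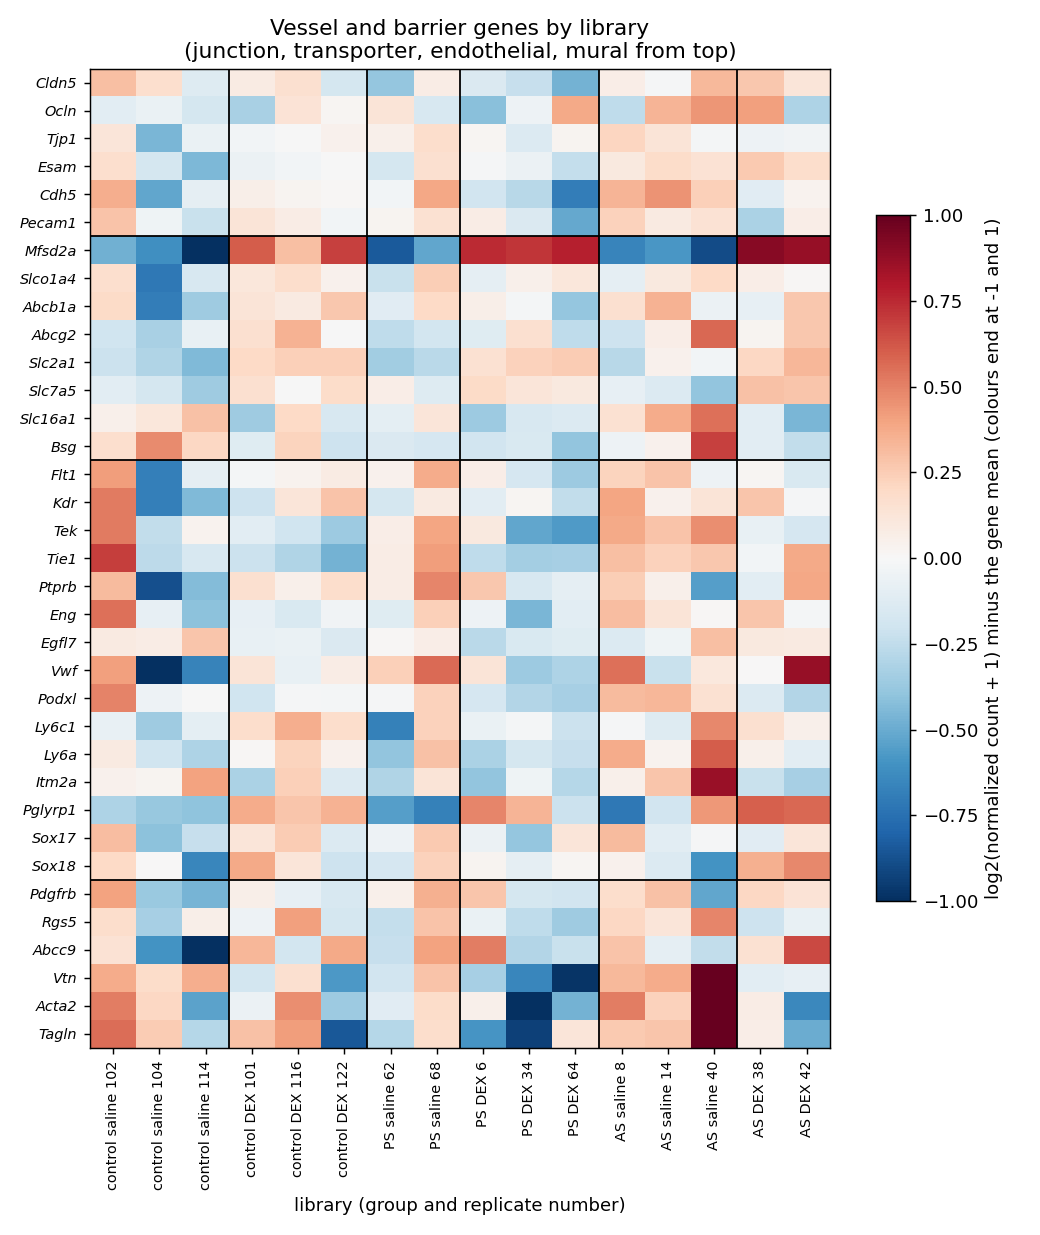
Level of each of the 35 vessel and barrier genes (rows) in each of the 16 libraries (columns, by group and replicate number), as log2(normalized count + 1) minus the mean of the gene over all libraries. Mfsd2a is low in the 8 saline and high in the 8 DEX libraries, con_sal_102 and PS_sal_68 are high across most endothelial genes, and AS_sal_40 is highest for Vtn, Acta2 and Tagln.

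After DEX, 3 transporters and 1 endothelial gene were higher, 1 transporter, 2 endothelial genes and 1 mural gene were lower, and no junction gene was called. In the average of the DEX effects over control, PS and AS mice, 8 of the 35 genes were called (22.9%, against 4.31% of all genes; 2.78% were called higher and 1.53% lower). Higher after DEX were Mfsd2a, Slc2a1, Slc7a5 and Pglyrp1, and lower were Slc16a1, Tek, Podxl and Vtn. By role these were 4 of 8 transporters (3 higher, 1 lower), 3 of 15 endothelial genes (1 higher, 2 lower), 1 of 6 mural genes (lower) and 0 of 6 junction genes. The median log2 fold change was 0.14 over the transporters, -0.052 over the junction genes, -0.11 over the endothelial genes and -0.32 over the mural genes, beside -0.0026 over all genes. The difference between roles was not tested. The genes were chosen with earlier results of these data known, so their share called cannot be read as an excess over all genes. The count was 4 without PS_sal_68, where all 4 lower calls were lost, and 5 without AS_dex_42, where Slc16a1, Tek and Podxl were lost. It was 13 with library weights, which added Acta2, Bsg, Cdh5, Itm2a and Tie1.

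**Figure D2:**
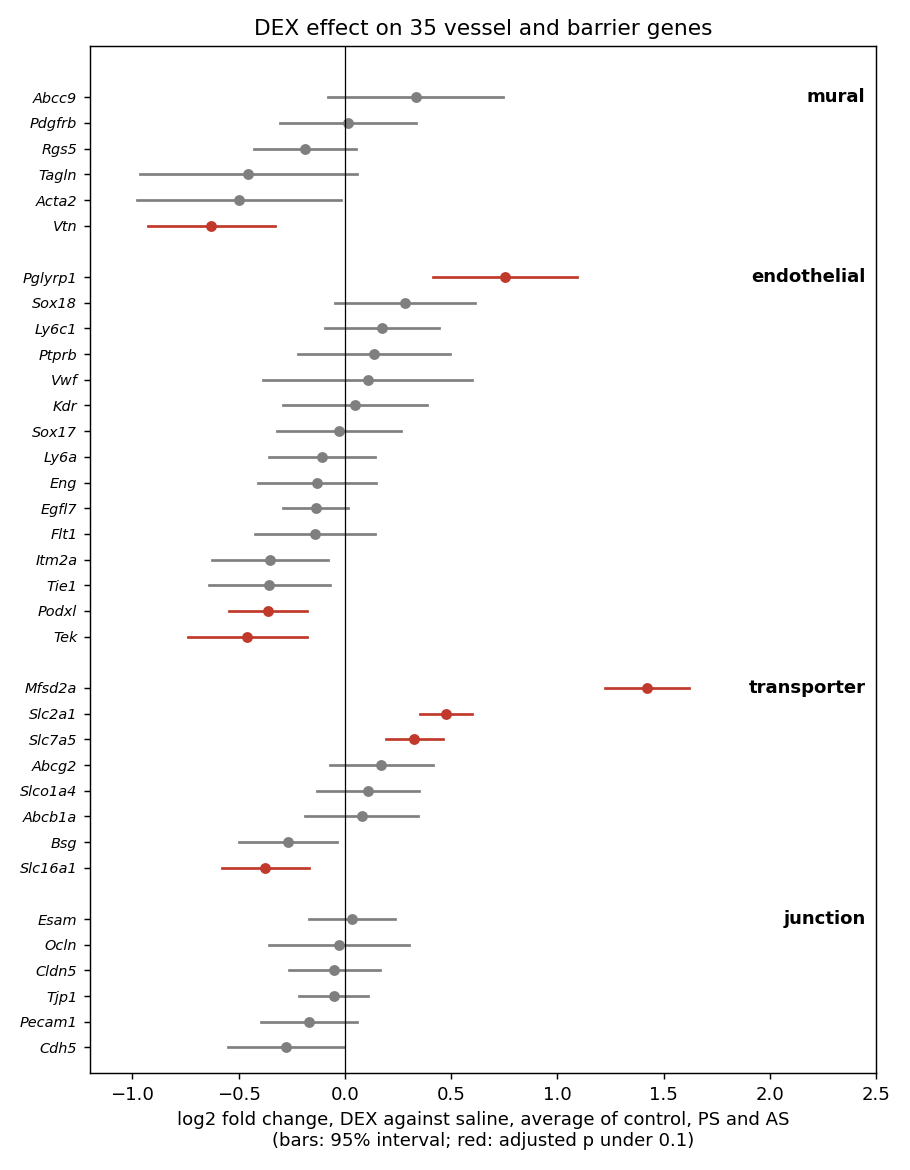
DEX effect on each of the 35 genes, averaged over control, PS and AS mice, as log2 fold change (horizontal axis) with its 95% interval, ordered within the 4 roles. Red marks the 8 genes called at an adjusted p under 0.1, of which Mfsd2a is farthest from 0, and all 6 junction genes are grey.

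Within single phenotypes fewer genes were called, with 2 of 35 (5.71%) in each. In control mice these were Mfsd2a and Slc2a1 (background 1.26% of all genes, 1% higher and 0.262% lower), in PS mice again Mfsd2a and Slc2a1 (background 0.703%, 0.579% higher and 0.124% lower), and in AS mice Mfsd2a and Slc7a5 (background 0.689%, 0.538% higher and 0.152% lower). All of these were higher after DEX. These counts moved with the settings, to 6 with library weights in PS mice, and in AS mice to 9 with library weights, 4 with DESeq2 and 1 with TMM scaling, edgeR or only the groups compared. Leaving out 1 library gave 1 or 2 in PS and in AS mice, and in control mice only the groups compared gave 1 and DESeq2 gave 3. At an unadjusted p under 0.05 there were 7, 8 and 10 of 35 in control, PS and AS mice and 13 in the average, beside 12.1%, 4.69%, 9.36% and 14% of all genes. Positive log2 fold changes were found for 23 of the 35 genes in control, 7 in PS and 13 in AS mice, beside 7352, 7088 and 7113 of all 14504 genes. The median 95% interval of a gene reached 0.49 to each side on the log2 scale in PS and in AS mice, against 0.27 in the average.

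Mfsd2a (chr4:122946850-122961188, minus strand), the transporter of lysophosphatidylcholine lipids that also limits transcytosis across brain endothelium, changed most. In control mice, Mfsd2a was at 1041, 952 and 720.1 normalized counts in the saline libraries and at 2217, 1794 and 2333 in the DEX libraries. In PS mice, Mfsd2a was at 812 and 1015 after saline and at 2441, 2386 and 2496 after DEX. In AS mice, Mfsd2a was at 921, 969.9 and 781 after saline and at 2742 and 2663 after DEX. All 8 DEX libraries lay above all 8 saline libraries, and the lowest DEX value was 1794 against a highest saline value of 1041. Of the 35 genes only Mfsd2a and Slc2a1 were separated in this way, and 1.88% of all genes were. The average was 2.68-fold higher after DEX (log2 fold change 1.42, 95% interval 1.23 to 1.62, adjusted p = 6.66e-07). The effect was 1.23 in control, 1.43 in PS and 1.61 in AS mice, and each was called (adjusted p = 0.000774, 0.000756 and 0.000307). The effect in AS minus that in control mice was 0.37 (95% interval -0.098 to 0.85, adjusted p = 0.941), so a difference between the phenotypes was not shown.

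Slc2a1 (chr4:119108711-119137983, plus strand) encodes the glucose transporter GLUT1 of the barrier. In control mice, Slc2a1 was at 5029.7, 4755 and 4308 normalized counts in the saline libraries and at 6721, 6890.3 and 6913 in the DEX libraries. In PS mice, Slc2a1 was at 4612 and 4843 after saline and at 6506, 6868 and 6969 after DEX. In AS mice, Slc2a1 was at 4819.8, 6026 and 5738 after saline and at 6749 and 7352 after DEX. The lowest DEX library of any phenotype lay above the highest saline library, which was AS_sal_14. Slc2a1 was 1.39-fold higher in the average (log2 fold change 0.47, 95% interval 0.35 to 0.60, adjusted p = 0.000203). The effect was 0.55 in control, 0.52 in PS and 0.36 in AS mice, and the last was not called (adjusted p = 0.228). In PS mice the call was lost without any 1 of PS_dex_34, PS_dex_64, PS_sal_62 and PS_sal_68 (adjusted p up to 0.331), and in control mice when only the control libraries were fitted (adjusted p = 0.12).

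Slc7a5 (chr8:121881150-121907694, minus strand), which encodes LAT1, the light chain of a large neutral amino acid transporter, rose by less. In control mice, Slc7a5 was at 4579, 4354 and 3862 normalized counts in the saline libraries and at 5503, 4911 and 5586 in the DEX libraries. In PS mice, Slc7a5 was at 5167 and 4506 after saline and at 5616, 5352 and 5274 after DEX. In AS mice, Slc7a5 was at 4661, 4476 and 3756 after saline and at 6041 and 5969.6 after DEX. DEX libraries lay above the saline libraries of their own phenotype in all 3 phenotypes, but PS_sal_62 was above con_dex_116. The average was 1.25-fold higher (log2 fold change 0.33, 95% interval 0.19 to 0.46, adjusted p = 0.00777), with 0.32 in control, 0.17 in PS and 0.49 in AS mice. The call in AS mice (adjusted p = 0.0936) was near the threshold and did not hold in 13 of 16 refits with 1 library omitted (adjusted p up to 0.766), all but those without AS_sal_8, con_sal_102 or con_sal_114. The gene Gm20388 spans Slc7a5, and reads of the pair may not be told apart.

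Slc16a1 (chr3:104638668-104658462, plus strand), the monocarboxylate transporter MCT1 for lactate and ketone bodies, fell. In control mice, Slc16a1 was at 1661, 1729.9 and 1960.2 normalized counts in the saline libraries and at 1254, 1838 and 1434 in the DEX libraries. In PS mice, Slc16a1 was at 1494 and 1737 after saline and at 1242, 1433 and 1454 after DEX. In AS mice, Slc16a1 was at 1776, 2069 and 2345 after saline and at 1486 and 1163 after DEX. The arms did not overlap in PS and AS mice and overlapped in control mice, where con_dex_116 was above con_sal_102 and con_sal_104. In the average the log2 fold change was -0.38 (95% interval -0.58 to -0.17, adjusted p = 0.0485), with -0.26 in control, -0.23 in PS and -0.64 in AS mice. The call was lost without AS_dex_42 (adjusted p = 0.229), PS_sal_68 (0.189) or con_dex_122 (0.106), and kept without AS_sal_40, its highest library (adjusted p = 0.0766). Oligodendrocytes also express Slc16a1, and of the 6 oligodendrocyte markers Mog and Cnp were lower after DEX (-0.43 and -0.37, adjusted p = 0.082 and 0.0141). The summed level of the 6 markers ran from 128308 to 211326 in saline and from 127282 to 178543 in DEX libraries, and its part in the result was not tested.

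The 4 other transporter genes were not called in any comparison of the main analysis. After saline, Slco1a4 was at 2304, 1247 and 1833 normalized counts in control, 1762 and 2437 in PS and 1932, 2190.3 and 2358 in AS libraries. After DEX, Slco1a4 was at 2217, 2318 and 2113 in control, 1924, 2120.1 and 2221 in PS and 2154 and 2067 in AS libraries. This organic anion carrier overlapped between saline and DEX in all 3 phenotypes (average log2 fold change 0.11, 95% interval -0.13 to 0.35, adjusted p = 0.668). After saline, Abcb1a was at 1319, 715 and 905 normalized counts in control, 1071 and 1326 in PS and 1290.2, 1473 and 1114 in AS libraries. After DEX, Abcb1a was at 1264, 1232 and 1397 in control, 1205, 1139 and 885 in PS and 1095 and 1393 in AS libraries. Abcb1a, which encodes P-glycoprotein and has the close copy Abcb1b, with which reads may be shared, also overlapped in all 3 (log2 fold change 0.078, 95% interval -0.19 to 0.35, adjusted p = 0.792). The efflux pump Abcg2 changed by 0.17 (95% interval -0.071 to 0.41) in the average, and Bsg, the chaperone of monocarboxylate transporters, by -0.27 (-0.50 to -0.038, adjusted p = 0.279). Bsg ranged from 14873 to 31383 normalized counts, the highest library being AS_sal_40.

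**Figure D3:**
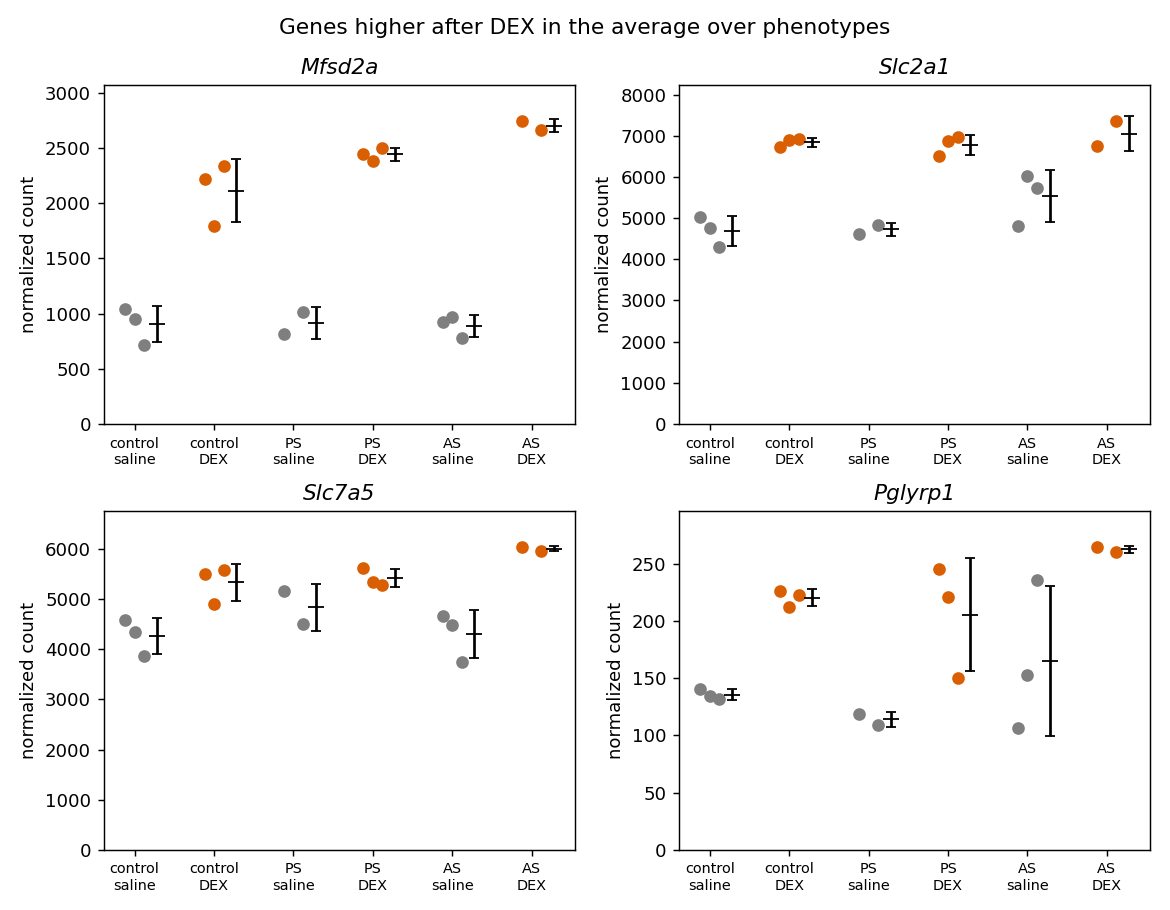
Normalized counts of Mfsd2a, Slc2a1, Slc7a5 and Pglyrp1 by group, with 1 point per library (grey saline, orange DEX) and the mean with SD as a black bar beside the points; the vertical axes start at 0. For each gene the DEX points lie above the saline points of the same phenotype, and for Mfsd2a and Slc2a1 above every saline point.

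Genes of cell junctions did not pass the test in any comparison of the main analysis. In the average over phenotypes their log2 fold changes ran from -0.28 for Cdh5 to 0.034 for Esam. After saline, Cldn5 was at 1099.7, 1004 and 815 normalized counts in control, 683 and 937 in PS and 933, 886 and 1115 in AS libraries. After DEX, Cldn5 was at 943, 995 and 788 in control, 807, 758 and 642 in PS and 1076 and 969 in AS libraries. Cldn5, the main claudin of brain endothelium, overlapped between saline and DEX in each phenotype (log2 fold change -0.051, 95% interval -0.26 to 0.16, adjusted p = 0.834). After saline, Ocln was at 333, 342 and 316 normalized counts in control, 391 and 320.1 in PS and 299, 453 and 485 in AS libraries. After DEX, Ocln was at 285, 393 and 362 in control, 267, 346 and 466 in PS and 475 and 288 in AS libraries. Ocln, a tight junction membrane protein, overlapped likewise (log2 fold change -0.027, 95% interval -0.36 to 0.30, adjusted p = 0.946).

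The scaffold gene Tjp1 encodes ZO-1 and is expressed in many cell types. After saline, Tjp1 was at 3622, 2438 and 3193 normalized counts in control, 3467 and 3763 in PS and 3884, 3660.2 and 3298 in AS libraries. After DEX, Tjp1 was at 3282, 3333 and 3439.6 in control, 3389.9, 3039 and 3399 in PS and 3219 and 3252 in AS libraries. The DEX libraries lay below the saline libraries in PS and AS mice and among them in control mice, and the average was not called (log2 fold change -0.053, 95% interval -0.22 to 0.11, adjusted p = 0.762). After saline, Pecam1 was at 689.5, 549.8 and 485 normalized counts in control, 575 and 628 in PS and 666, 601 and 627 in AS libraries. After DEX, Pecam1 was at 620.4, 595 and 555 in control, 595, 512 and 396 in PS and 455 and 592 in AS libraries. For Pecam1, an adhesion gene of endothelial contacts, the arms were separate in AS mice alone, and the average was not called (log2 fold change -0.17, 95% interval -0.40 to 0.055, adjusted p = 0.479). Cdh5, the cadherin of endothelial adherens junctions, was -0.28 in the average (95% interval -0.55 to -0.0042, adjusted p = 0.349), and its unadjusted p was under 0.05, the only one among the 6. Its DEX libraries lay below its saline libraries in PS and AS mice, and with library weights Cdh5 was called in the average. Esam, an adhesion molecule of endothelial tight junctions, was 0.034 (95% interval -0.17 to 0.24). These intervals leave room for changes of up to 0.55 on the log2 scale for Cdh5 and of under 0.4 to either side for Cldn5, Ocln, Tjp1 and Esam.

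Among the 15 endothelial genes, Pglyrp1 rose after DEX and Tek and Podxl fell. Pglyrp1 (chr7:18871331-18890459, plus strand), a peptidoglycan recognition protein found in brain endothelium and in neutrophils, was low. Its annotated span begins upstream of the promoter printed above, which lies before another of its starts. In control mice, Pglyrp1 was at 141, 134 and 132 normalized counts in the saline libraries and at 227, 212 and 222 in the DEX libraries. In PS mice, Pglyrp1 was at 119 and 109 after saline and at 246, 221 and 150.0 after DEX. In AS mice, Pglyrp1 was at 106, 153 and 236 after saline and at 265 and 261 after DEX. DEX libraries were above the saline libraries of their phenotype in all 3 phenotypes, while AS_sal_40 lay above 5 of the 8 DEX libraries. Pglyrp1 was 1.68-fold higher in the average (log2 fold change 0.75, 95% interval 0.41 to 1.09, adjusted p = 0.0148), with 0.70 in control, 0.82 in PS and 0.74 in AS mice. Without AS_sal_40, the library highest in blood markers, the average was 0.85 (adjusted p = 0.00191).

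Tek (chr4:94739289-94874976, plus strand) encodes TIE2, the receptor of the angiopoietins. In control mice, Tek was at 562, 329.9 and 402 normalized counts in the saline libraries and at 365, 342 and 306 in the DEX libraries. In PS mice, Tek was at 411 and 517 after saline and at 419, 273 and 265 after DEX. In AS mice, Tek was at 511, 479 and 542 after saline and at 372 and 350.1 after DEX. Saline and DEX libraries overlapped in control and PS mice and were apart in AS mice. In the average Tek fell by 0.46 on the log2 scale (95% interval -0.74 to -0.18, adjusted p = 0.0848), with -0.32 in control, -0.56 in PS and -0.50 in AS mice. This call did not hold in 14 of 16 refits with 1 library omitted, where the adjusted p reached 0.283, and held without PS_dex_6 or con_sal_104. Its relative Tie1, not called, was -0.36 in the average (95% interval -0.64 to -0.072, adjusted p = 0.231).

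Podxl (chr6:31519488-31563981, minus strand) encodes podocalyxin, a sialomucin of the endothelial surface that other cells also express. In control mice, Podxl was at 1900.1, 1297 and 1344 normalized counts in the saline libraries and at 1169.9, 1332 and 1326 in the DEX libraries. In PS mice, Podxl was at 1332 and 1579.7 after saline and at 1196, 1099 and 1070.4 after DEX. In AS mice, Podxl was at 1674, 1697 and 1498 after saline and at 1225 and 1098 after DEX. The DEX libraries lay below the saline libraries in PS and AS mice and overlapped with them in control mice. In the average the log2 fold change was -0.36 (95% interval -0.54 to -0.18, adjusted p = 0.0329), with -0.23 in control, -0.37 in PS and -0.48 in AS mice. It was lost without PS_sal_68 (adjusted p = 0.153) or AS_dex_42 (0.146), and without con_sal_102 it was -0.30 (adjusted p = 0.0248).

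The receptors of vascular endothelial growth factor were not called. After saline, Flt1 was at 3209, 1495 and 2252 normalized counts in control, 2473 and 3104 in PS and 2797, 2929 and 2315 in AS libraries. After DEX, Flt1 was at 2371, 2457 and 2547 in control, 2511, 2139 and 1865 in PS and 2437 and 2157 in AS libraries. Flt1, which encodes VEGF receptor 1, overlapped between saline and DEX in each phenotype (log2 fold change -0.14, 95% interval -0.42 to 0.14, adjusted p = 0.633). After saline, Kdr was at 603, 262 and 309.8 normalized counts in control, 372 and 448 in PS and 552, 433 and 461 in AS libraries. After DEX, Kdr was at 364, 457 and 513 in control, 391, 427 and 354 in PS and 510.2 and 417 in AS libraries. Kdr, which encodes VEGF receptor 2, overlapped in each phenotype as well (log2 fold change 0.048, 95% interval -0.29 to 0.39, adjusted p = 0.905).

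Vwf, the clotting factor stored by endothelium of larger vessels, varied widely. After saline, Vwf was at 741, 205 and 350.4 normalized counts in control, 657 and 828 in PS and 817, 477 and 599 in AS libraries. After DEX, Vwf was at 609.9, 529.6 and 586 in control, 611, 434 and 450.1 in PS and 559 and 1022 in AS libraries. It was lowest in con_sal_104 and highest in AS_dex_42, and its DEX effect was 0.61 in control, -0.58 in PS and 0.29 in AS mice, none of them called (average 0.11, 95% interval -0.39 to 0.60, adjusted p = 0.848). The other 9 endothelial genes were not called either. Sox18, an endothelial transcription factor, had the highest average among these at 0.28, and its relative Sox17 was at -0.028. Itm2a, a membrane protein gene of brain endothelium, was at -0.35 (95% interval -0.63 to -0.078, adjusted p = 0.216). The surface antigens Ly6c1 (0.17) and Ly6a (-0.11) belong to a family of similar genes that may share reads. The phosphatase Ptprb (0.14), the TGF-β coreceptor Eng (-0.13) and the secreted factor Egfl7 (-0.14) complete the list.

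Of the 6 mural genes Vtn was called and fell. Vtn (chr11:78499091-78502324, plus strand) encodes vitronectin, a matrix protein that pericytes make in the brain. In control mice, Vtn was at 1887, 1659 and 1877 normalized counts in the saline libraries and at 1286, 1634 and 984 in the DEX libraries. In PS mice, Vtn was at 1278 and 1784 after saline and at 1160.4, 929 and 739.6 after DEX. In AS mice, Vtn was at 1833, 1894 and 3035 after saline and at 1359 and 1378 after DEX. Every DEX library was below every saline library of its phenotype. The average was 0.647-fold of saline (log2 fold change -0.63, 95% interval -0.93 to -0.33, adjusted p = 0.0221), with -0.50 in control, -0.70 in PS and -0.68 in AS mice. AS_sal_40, its highest library, was also the highest for Acta2, Tagln and blood markers, and without it the average was -0.55 (adjusted p = 0.0238). Without PS_sal_68 it was -0.55 and no longer called (adjusted p = 0.11).

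**Figure D4:**
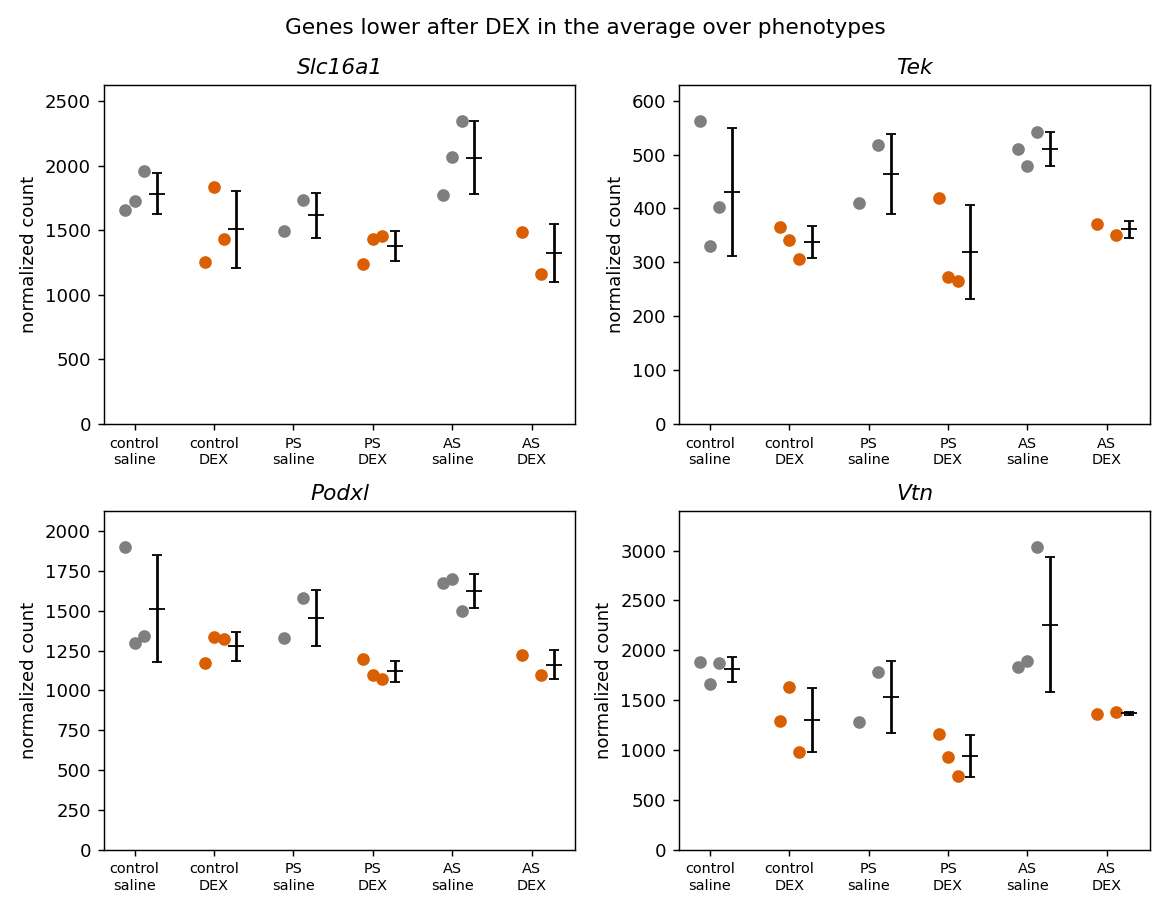
Normalized counts of Slc16a1, Tek, Podxl and Vtn by group, with 1 point per library (grey saline, orange DEX) and the mean with SD as a black bar beside the points; the vertical axes start at 0. The DEX points of Vtn lie below the saline points of the same phenotype in all 3 phenotypes, and those of Tek overlap with saline in control and PS mice.

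The other pericyte genes were not called after DEX. After saline, Pdgfrb was at 1116, 653 and 612 normalized counts in control, 878 and 1083 in PS and 957, 1038 and 591 in AS libraries. After DEX, Pdgfrb was at 883, 797 and 756 in control, 1028, 749.8 and 741 in PS and 975 and 932 in AS libraries. Pdgfrb, the receptor by which pericytes are recruited, overlapped in each phenotype (log2 fold change 0.013, 95% interval -0.31 to 0.33, adjusted p = 0.976). After saline, Rgs5 was at 3861, 2707 and 3548 normalized counts in control, 2894 and 4155 in PS and 3947, 3711 and 4781 in AS libraries. After DEX, Rgs5 was at 3289, 4545 and 3012 in control, 3266, 2864 and 2664 in PS and 2963 and 3242 in AS libraries. Rgs5, a regulator of G protein signaling in pericytes, was apart in AS mice only (log2 fold change -0.19, 95% interval -0.43 to 0.053, adjusted p = 0.466). Abcc9, a subunit of the pericyte potassium channel, had the highest average of the mural genes at 0.33 (95% interval -0.079 to 0.74, adjusted p = 0.453).

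Smooth muscle genes were low and variable. After saline, Acta2 was at 266, 215 and 128 normalized counts in control, 172 and 212 in PS and 267, 218 and 395 in AS libraries. After DEX, Acta2 was at 179, 257 and 144 in control, 193, 84.7 and 134 in PS and 196 and 119 in AS libraries. Acta2, smooth muscle actin, was highest in AS_sal_40 and was not called (log2 fold change -0.50, 95% interval -0.98 to -0.017, adjusted p = 0.339). Tagln, another gene of contractile smooth muscle, ranged from 62.9 to 243 and was not called (average -0.45, 95% interval -0.96 to 0.056).

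With the mean level of 10 other endothelial genes per library as a covariate, all 8 remained called and Tie1 was added, and the same 9 genes were called when S1pr1, itself lower after DEX, was left out of the covariate. The covariate of 10 genes averaged 0.0044 in the 8 saline and -0.0044 in the 8 DEX libraries on the log2 scale. It could thus move a DEX average only little, and it holds no mural gene. These averages include S1pr1 and do not describe the covariate without it. Of the 10 genes, 7 had a positive log2 fold change in the DEX average (median 0.11, beside -0.0026 over all genes). At an unadjusted p under 0.05 there were 5 of the 10, beside 14% of all genes. The part of vessel content in the calls was not tested by the covariate. Under this covariate Slc16a1 kept -0.37 (adjusted p = 0.0579) and Podxl -0.37 (adjusted p = 0.00476).

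Beyond these 35, 80 other genes of vessel signaling, junctions, transport and mural cells were measured, and 10 of them were called in the DEX average, 4 higher and 6 lower, beside 4.31% of all genes. These genes too were chosen with earlier results of these data known. Notch4, a Notch receptor of endothelium, rose in every phenotype. It was at 336 ± 54.8 normalized counts in control saline (SD, n = 3) and 869 ± 219 in control DEX (n = 3), with log2 fold changes of 1.35 in control, 1.23 in PS and 1.57 in AS mice (average adjusted p = 7.66e-06). S1pr1, a receptor of sphingosine-1-phosphate in endothelium and astrocytes, fell in every phenotype, by 0.67 on the log2 scale in the average (adjusted p = 5.81e-06).

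Of the 15 vessel ligands measured, 4 were called in the DEX average, beside 4.31% of all genes. Wnt7a and Wnt7b, Wnt ligands of neural cells that act on brain endothelium, fell. Wnt7a was at 527 ± 61.4 in control saline (SD, n = 3) and 225 ± 5.02 in control DEX (n = 3), and its average change was -1.0 (adjusted p = 0.000346). It was also called in control and in PS mice (-1.22 and -1.05), while Wnt7b was called in control mice (-0.71) and in the average at -0.60 (adjusted p = 0.00254). Angpt1, the activating ligand of TIE2, rose by 0.72 (adjusted p = 0.00602) in the average while Tek fell, and Angptl4, a lipase inhibitor, rose by 0.68 (adjusted p = 0.0751). Wnt7b and Angpt1 overlap the genes AU022754 and Gm17473, whose reads may not be told apart from theirs. Of the 14 receptors and signaling genes Notch4 and Ednrb were called, the latter an endothelin receptor also found in astrocytes, at -0.41 (adjusted p = 0.041).

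Among 17 other transporters 3 were called in the DEX average, beside 4.31% of all genes. Abcc4, an efflux pump, rose by 0.53 (adjusted p = 0.00362) in the average and by 0.87 in control mice. Slco1c1, the thyroxine carrier of the barrier, changed by -0.55 (adjusted p = 0.00414). Slc38a5, a glutamine carrier, changed by -1.50 (adjusted p = 0.00585) in the average, with DEX libraries below saline libraries in each phenotype. None of 10 other junction genes, 5 endothelial transcription factors and 9 other mural genes was called in the average with limma. At an unadjusted p under 0.05 there were 1, 0 and 3, beside 14% of all genes. In the lists with calls, 5 of 15 ligands, 5 of 14 receptors and signaling genes and 5 of 17 other transporters were under 0.05. So were 5 of the 10 endothelial genes used as a covariate, of which 1, S1pr1, was called.

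**Figure D5:**
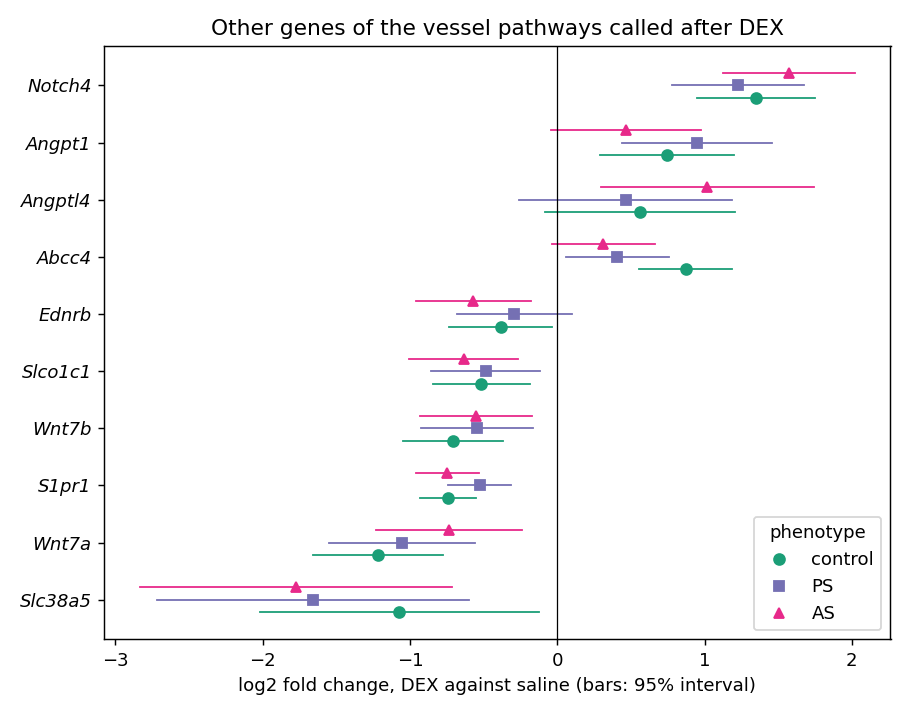
Log2 fold change after DEX (horizontal axis, bars are 95% intervals) of the 10 other vessel genes called in the average, separately for control, PS and AS mice. Notch4 lies above 0 and S1pr1, Wnt7a, Wnt7b, Slco1c1 and Slc38a5 below 0 in each phenotype.

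Stress alone gave no call among the vessel genes. Under saline, 0 of 35 were called with limma in PS against control, AS against control or AS against PS, and 0 of all 14504 genes were (0%). At an unadjusted p under 0.05 the numbers were 2, 3 and 0 of 35 with limma, beside 7.67%, 2.39% and 3.41% of all genes, and DESeq2 and edgeR on the recovered reads also called 0 of the 35. In PS mice the 2 were Vwf at 0.97 (95% interval 0.088 to 1.85, adjusted p = 0.571) and Bsg at -0.44 (-0.85 to -0.022). In AS mice the 3 were Ly6a at 0.48, Abcb1a at 0.44 and Slc2a1 at 0.23, each with an adjusted p of 0.998.

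Against control saline, 31 of 35 genes had a positive log2 fold change in AS saline (median 0.25, beside 0.016 over all genes) and 23 of 35 in PS saline (median 0.092, beside 0.0066). Of all 14504 genes, 7821 were positive in AS saline and 7394 in PS saline. Both comparisons use the same 3 control saline libraries, of which con_sal_104 had the lowest and con_sal_102 the highest endothelial level of the 16 libraries. The median 95% interval of a gene in AS saline reached 0.44 to each side. Mfsd2a showed little difference under saline, at 0.023 in PS (95% interval -0.33 to 0.37) and -0.011 in AS mice (-0.33 to 0.30).

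After DEX, 0 of 35 were called with limma in PS against control, AS against control or AS against PS (background 0%, 0.00689% and 0%). At an unadjusted p under 0.05 there were 0, 1 and 2 (background 1.23%, 3.5% and 1.7%), namely Mfsd2a at 0.36 in AS against control (95% interval 0.012 to 0.71) and Cldn5 and Vtn at 0.48 and 0.56 in AS against PS. In the stress effect averaged over PS, AS and both treatments 0 were called, also at an unadjusted p under 0.05 (background at that threshold 4.25%). DESeq2 and edgeR called 0 of the 35 in these comparisons as well.

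The DEX effects of the phenotypes did not differ for any vessel gene beyond the test's threshold. None of the 35 was called in the differences PS minus control, AS minus control or AS minus PS with limma, and of all genes 0% were in each. At an unadjusted p under 0.05 there were 2, 1 and 0 (background 2.1%, 4.02% and 2.9%). These were Cdh5 and Vwf in PS minus control (-0.68 and -1.19) and Ly6a in AS minus control (-0.60). DESeq2 and edgeR called 0 of the 35 in each. The median interval reached 0.66 to each side in PS minus control, before any adjustment for the number of genes.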

How the data were processed

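PolyA RNA-seq of the mouse DRN was analyzed in 16 libraries, grouped by their labels. Per the submitters' processing notes and the study's methods, reads were trimmed with fastp 0.20.1, aligned with HISAT2 2.2.1 to mm10 (GRCm38) and counted with featureCounts (Subread) on GENCODE vM22, whose strand setting is not given in the sources used here, so overlapping and antisense genes are uncertain. The signal the authors deposited is the normalized count, gene counts divided by DESeq2 size factors. The stated minimum of 10 reads in every sample does not hold for 973 of the 14504 genes. Other deposited tables hold the authors' log2 fold changes and p-values and were not used. Multiplying by the size factor gave whole reads (within 0.01) for 100% of values. Coordinates and exon lengths are from GENCODE vM21.

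log2(normalized count + 1) was fitted with limma 3.58.1 (R 4.3.3, eBayes with trend, 6 group means, 10 residual and 3.88 prior degrees of freedom), adjusted by Benjamini-Hochberg over all genes per contrast and called under 0.1. The code was tested on simulated data. By the study's methods each library was from its own mouse. Libraries held 38207157 to 62447298 reads, and groups of 2 limit precision. Alternatives were pseudocounts of 0.1 and 10, a mean of at least 100, TMM scaling, library weights, only the groups compared, DESeq2 1.42.0 and edgeR 4.0.16 on recovered reads, a covariate of 10 endothelial genes (9 without S1pr1, added after seeing the data) and leaving out each library. Values were given for every gene called in any contrast, for set representatives of each role, for the extremes of each role in the DEX average and for other vessel genes called. The 35 genes, the lists and the representatives were chosen with earlier results of these data known.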

Additional observations from a re-analysis of the deposited data

How the results depend on the processing

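In the DEX average, 8 of 35 vessel genes were called, and the same 8 were called with both pseudocounts, a mean of at least 100, TMM scaling, DESeq2, edgeR and both covariates (which added Tie1). Fitting only the groups compared is the same fit for this average. Library weights gave 13, adding Acta2, Bsg, Cdh5, Itm2a and Tie1 to the 8. Leaving out 1 library gave 4 to 8, with 4 (Mfsd2a, Slc2a1, Slc7a5 and Pglyrp1) without PS_sal_68 and 5 (also Vtn) without AS_dex_42. In control mice 2 were called in the main analysis, 1 with only the groups compared, 3 with DESeq2 (also Slc7a5), and 2 in each fit without 1 library. In PS mice 2 were called, 6 with library weights, and 1 to 2 without 1 library. In AS mice 2 were called, 4 with DESeq2, 9 with library weights, 1 each with TMM scaling, edgeR and only the groups compared, and 2 with the covariate without S1pr1 (Mfsd2a and Podxl, not Slc7a5), and 1 to 2 without 1 library. The cause of these shifts was not tested, beyond the fewer libraries where 1 was left out. No direction of a called gene changed, and Mfsd2a was called in the average and in each phenotype in every fit run. No vessel gene was called in a stress comparison or a difference between phenotypes in the main analysis. The groups of 2 libraries and widely varying vessel levels in control saline limit what these counts can show. No paired analysis was possible because the groups share no replicate numbers.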
